A study of Schizosaccharomyces pombe with 72 samples.

Results

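The small nucleolar RNA (snoRNA) entries of the fission yeast Schizosaccharomyces pombe were followed through polyadenylated RNA of chromatin remodeler and elongation factor mutants. They were chosen by name alone, as every sense entry whose identifier begins with SPSNORNA, which gave 53 of 6997 sense entries. A reverse-complement entry was also deposited for each sense entry, for 13994 entries in all. The study sequenced mRNA from 72 libraries in 24 groups of 3 replicates, in experiments A (batches A-b1 and A-b2), B, C and D, and each mutant is set against the WT libraries of its own experiment or batch.

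In A-b1 the mutants carried a kanMX deletion of fft2, fft3, hrp1, hrp3, mit1, rrp1, rrp2, irc20 or swr1, and in A-b2 a hygMX deletion of fft1 or snf22. In B they were hrp1Δ, hrp3Δ and hrp1Δhrp3Δ, in which the hrp3 deletion of hrp1Δhrp3Δ is unmarked. By its labels, C held hrp3-CT(hrp1), with hrp1 deleted and a hrp3 gene whose C-terminus comes from hrp1. It also held hrp1-CT(hrp3), the reverse exchange with hrp3 deleted. D held hrp1Δhrp3Δ, prf1Δ and hrp1Δhrp3Δprf1Δ. Every strain, WT included, was h+ ade6-M216 ura4-D18 leu1-32 and grew in rich medium at 32 ºC to mid-log phase, and each genotype is 1 strain. The labels do not say that replicates came from separate cultures, whereas the study's text calls the replicates biological, and p-values measure the spread between these libraries.

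The deleted gene was checked first, in CPM, counts scaled to a common total for each library. fft1, mit1, irc20 and snf22 were at 0 in all libraries of their own deletions, and hrp3 was at 0 in every hrp1Δhrp3Δ and hrp1Δhrp3Δprf1Δ library. In hrp3Δ of B, hrp3 was lower but not at 0, with 23.6 to 26.3 CPM, against 53.4 to 60.4 in WT. hrp1 had 8.87 to 10.2 CPM in hrp1Δ of B, against 48.1 to 53.6 in WT, and 12.5 to 16.5 CPM in hrp1Δ of A-b1, against 19.3 to 24.6. prf1 was not at 0 in the libraries labelled prf1Δ, with 53.8 to 61.8 CPM, against 153, 128 and 3.04 CPM in WT of D. In hrp1Δhrp3Δprf1Δ replicates 1 and 3, prf1 had 45.1 and 43.2 CPM and hrp1 had 64.6 and 31.6 CPM. hrp1 had 126, 103 and 2.53 CPM in WT of D and 1.35, 13.9 and 23.5 CPM in hrp1Δhrp3Δ of D. In 3 groups of A-b1 the deleted gene did not fall below WT, namely the libraries labelled fft2Δ (33.0 to 69.5 CPM for fft2, against 24.8 to 28.2 in WT), rrp1Δ (41.7 to 52.0 for rrp1, against 30.9 to 39.1) and hrp3Δ of A-b1 (21.2 to 38.3 for hrp3, against 21.3 to 25.7). Likewise hrp1 had 58.7 to 117 CPM in libraries labelled hrp3-CT(hrp1), against 86.5 to 96.9 in WT. hrp3 had 82.0 to 85.1 CPM in libraries labelled hrp1-CT(hrp3), against 56.8 to 66.8 in WT. The exchanged C-terminus can also count for these entries. The gene said to be kept was below WT: hrp3 at 37.4 to 50.4 CPM in hrp3-CT(hrp1), and hrp1 at 39.3 to 50.4 CPM in hrp1-CT(hrp3). Whether the labels of C match the strains was not tested, and they are used as given.

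Totals of estimated counts per library ran between 470206 and 38590500 for A-b1. They ran between 5054950 and 9874250 for A-b2, between 7222370 and 10013200 for B, and between 5203040 and 14320900 for C. Apart from hrp1Δhrp3Δprf1Δ replicate 2, which held 3657 counts, D had between 1285130 and 6278190. The snoRNA entries drew 62 to 5898 counts per library in A-b1 and 0 to 9866 in D. A 95% Wilson interval of a library's snoRNA share reached at most 28.2% of that share to either side (A-b1, with 7.92% for D and at most 7.33% elsewhere), and covers counting error only. Since a share is a part of a whole, more snoRNA per cell and less of other RNA cannot be told apart. In D, 3 libraries stood apart in their profile over protein-coding entries: WT replicate 3 (correlation with the median profile of all 72 libraries 0.683), hrp1Δhrp3Δ replicate 1 (0.567) and hrp1Δhrp3Δprf1Δ replicate 2 (0.229). Results of D are therefore given with and without them, a choice made after the data were seen. hrp1Δhrp3Δ replicate 3, which was kept, also differed from replicate 2 in single genes. It had 9.17 against 87.8 CPM for fft1, 26.9 against 127 for fft2 and 27.8 against 130 for snf22. rrp1 (27.1 against 35.1) and prf1 (119 against 111) were closer. Results of hrp1Δhrp3Δ without the 3 libraries rest on replicates 2 and 3.

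Most snoRNAs guide the chemical modification of ribosomal RNA. Box C/D snoRNAs carry a box C (TGATGA in its common form) near the 5′ end and a box D (CTGA) near the 3′ end and direct ribose methylation, and box H/ACA snoRNAs end a few bases after ACA and direct the change of uridine to pseudouridine. A few, such as U14, U3 and snR30, are needed for cleavage of the ribosomal precursor, as known from budding yeast. Mature snoRNAs have no poly(A) tail. Tailed forms arise during 3′ end formation and nuclear decay, where the Rrp6-containing exosome trims or degrades them, so a library selected for poly(A) samples precursors, tailed decay intermediates and RNA carried over without a tail.

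By RefSeq product name or by motif, 20 entries were H/ACA. The 18 C/D entries were set by motif alone, as those with both TGATGA and CTGA in the windows given below. The other 15 were not assigned, and C/D snoRNAs with another form of either box would be among them. All 53 were found in RefSeq (assembly ASM294v3), and 52 had its length; the exception was snR90, with 225 bases in the files against 488. Because the deposited values were made on ASM294v2, no coordinates are given. By that annotation 31 lay on chromosome I, 18 on II and 4 on III. Lengths ran from 47 to 326 bases, with a median of 95. Of the 53, 35 stood outside every other entry of the same strand, 10 lay in introns of protein-coding genes, and 8 lay in exons of long non-coding RNA (lncRNA) entries. Both TGATGA in the first 25 bases and CTGA in the last 20 bases were present in 18 of 53 entries (34.0%), against 0.140% of 7133 annotated lncRNAs, searched on the strand of the gene only. ACA exactly 3 bases before the 3′ end was present in 10 of 53 (18.9%), against 1.72% of the lncRNAs.

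The C/D entries that the results turn on are shown 5′ to 3′ from RefSeq ASM294v3, with TGATGA and CTGA in capitals. sno52 (SPSNORNA.29, chromosome I, minus strand), snoU14 (SPSNORNA.21, II, plus) and snoZ16 (SPSNORNA.10, I, plus) are the C/D entries with the highest WT levels, and snoR39b (SPSNORNA.24, II, minus), inside an intron of rpl701, is the one called in prf1Δ with all libraries of D.
sno52: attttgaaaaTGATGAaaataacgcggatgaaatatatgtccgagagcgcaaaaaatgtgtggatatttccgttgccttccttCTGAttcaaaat
snoU14: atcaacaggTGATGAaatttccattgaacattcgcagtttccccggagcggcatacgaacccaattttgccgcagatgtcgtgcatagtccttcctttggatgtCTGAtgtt
snoZ16: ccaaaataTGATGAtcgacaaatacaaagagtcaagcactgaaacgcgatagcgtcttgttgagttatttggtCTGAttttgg
snoR39b: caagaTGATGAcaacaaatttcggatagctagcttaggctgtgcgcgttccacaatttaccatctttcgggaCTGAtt

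The H/ACA entries that were among the largest changes or highest levels follow, with the ACA near the end in capitals. They are snR95 (SPSNORNA.47, II, minus), snR91 (SPSNORNA.43, I, minus), snR42 (SPSNORNA.40, II, plus) and snR98 (SPSNORNA.50, I, minus), and for snR30 (SPSNORNA.20, I, plus), the member with the most counts, the last 60 of its 326 bases are shown.
snR95: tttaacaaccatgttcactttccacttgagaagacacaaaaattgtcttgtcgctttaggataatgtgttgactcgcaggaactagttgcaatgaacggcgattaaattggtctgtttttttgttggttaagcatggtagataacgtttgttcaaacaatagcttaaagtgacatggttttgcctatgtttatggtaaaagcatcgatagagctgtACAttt
snR91: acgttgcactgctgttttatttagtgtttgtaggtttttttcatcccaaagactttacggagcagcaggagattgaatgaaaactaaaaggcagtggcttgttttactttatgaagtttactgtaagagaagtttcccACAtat
snR42: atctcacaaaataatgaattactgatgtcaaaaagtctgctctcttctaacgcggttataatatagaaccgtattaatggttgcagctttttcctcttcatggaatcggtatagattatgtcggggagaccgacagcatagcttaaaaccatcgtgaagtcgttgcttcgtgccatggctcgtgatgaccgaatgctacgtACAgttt
snR98: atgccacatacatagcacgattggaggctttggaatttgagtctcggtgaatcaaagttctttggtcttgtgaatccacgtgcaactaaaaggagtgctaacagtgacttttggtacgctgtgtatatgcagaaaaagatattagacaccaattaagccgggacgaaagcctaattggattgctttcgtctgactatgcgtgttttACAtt
snR30: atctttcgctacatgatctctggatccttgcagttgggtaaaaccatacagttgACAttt

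Levels in WT spanned a wide range. Per length, in TPM, which divides by effective length, the highest median over the 15 WT libraries was that of sno52, at 512.5 TPM (lowest 112.6, highest 3258). snoU14 had a median of 381.0 TPM (273.2 to 539.3) and snR30 one of 130.1 TPM (63.0 to 406.7). snR95 followed at 102.3 TPM (39.2 to 393.3) and snoZ16 at 99.9 TPM (10.9 to 881.5). Their ranges overlapped, so neighbours in this order did not separate beyond the spread between WT libraries. TPM of entries this short rests on small effective lengths, which for the 82-base entry snR40, a C/D snoRNA, ran from 5.71 to 36.8 bases among libraries, so the tests below use counts. In all, 10 members were above 0 in 71 libraries, 13 had a WT median of 0 CPM, and snoZ8 was at 0 in all 72.

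The place of a member in the annotation went with its count. The 35 members outside other entries had a median WT level of 2.59 CPM and the 10 intronic ones 0.944 CPM. The 8 members in lncRNA exons (snoZ8, snoZ7, snoZ5, snoZ4 and snoZ3 in snoZ, snoZ30 in SPNCRNA.1483, snoR68 in SPNCRNA.1650 and snR97 in SPNCRNA.617) had a median of 0, and none exceeded 6.53 counts in a library. Their estimates were split with the entry that encloses them, and they are uncertain for that reason. The same holds for sno16, sno20 and snR92, whose estimates were not whole numbers in 68, 43 and 36 libraries.

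The members snR5, snR10 and snR96 were read mainly from the opposite strand. Sense counts above 0 appeared in 4, 2 and 29 libraries, while their reverse-complement entries were above 0 in 71, 65 and 71. The WT medians of those entries were 3.93 CPM for snR5, 2.20 CPM for snR10 and 15.9 CPM for snR96. The reverse complements of snR10 (SPSNORNA.37, chromosome III) and snR96 (SPSNORNA.48, I) are shown because both end in ACA and 3 further bases, the spacing of an H/ACA snoRNA. snR96 overlaps tim17 on the opposite strand, so its reverse-complement count can hold reads of that gene.
snR10 reverse complement: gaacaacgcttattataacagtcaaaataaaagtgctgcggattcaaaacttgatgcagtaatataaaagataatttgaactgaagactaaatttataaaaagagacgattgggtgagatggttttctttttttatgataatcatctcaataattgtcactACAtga
snR96 reverse complement: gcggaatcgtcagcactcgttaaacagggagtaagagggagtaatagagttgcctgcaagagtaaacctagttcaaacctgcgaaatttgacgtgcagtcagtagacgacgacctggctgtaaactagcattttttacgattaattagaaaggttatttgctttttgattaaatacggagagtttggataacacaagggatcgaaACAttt

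**Figure D1:**
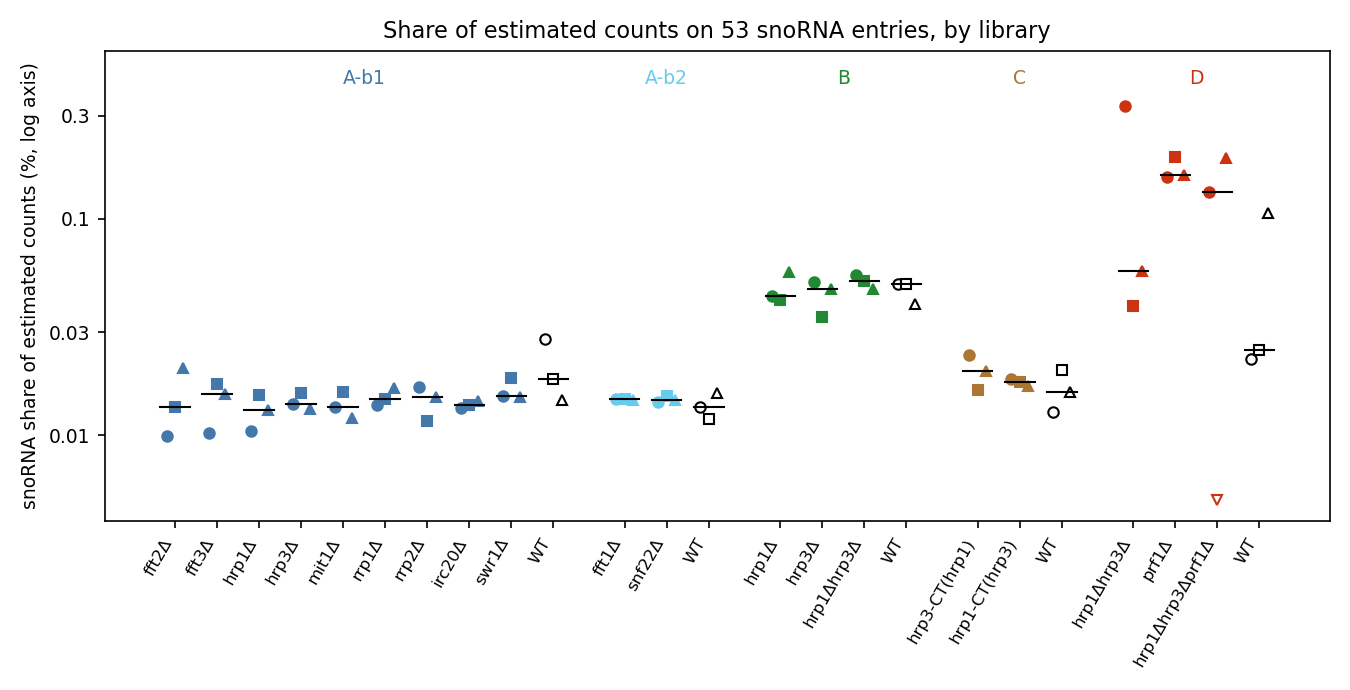
Share of each library's estimated counts on the 53 snoRNA entries (%, log axis), by group within A-b1, A-b2, B, C and D. Circles, squares and triangles are replicates 1, 2 and 3, open symbols are WT, lines are medians, and the open downward triangle marks the library with 0 snoRNA counts, drawn at the bottom; the 3 prf1Δ libraries lie between 0.157 and 0.194%, above the 3 WT libraries of D.

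The libraries labelled prf1Δ had the largest ratio of snoRNA share to WT of the 19 comparisons, and how many members passed the test turned on the 3 libraries that stood apart. Prf1 is an RNA polymerase II elongation factor related to budding yeast Rtf1, and prf1 itself was lower in these libraries than in WT replicates 1 and 2 but above WT replicate 3. They took 0.157, 0.194 and 0.159% of counts in prf1Δ, against 0.0226, 0.0247 and 0.107% in WT. All 3 prf1Δ libraries were above all 3 WT libraries, at a ratio of means of 3.31 (exact permutation p = 0.1, two-sided, the smallest that 3 against 3 allows; 0.585 after Benjamini-Hochberg adjustment over 19 comparisons). hrp1Δhrp3Δprf1Δ had shares of 0.134, 0 and 0.191%, where the 0 comes from the library of 3657 counts and allows up to 0.0820%. hrp1Δhrp3Δ had 0.332, 0.0394 and 0.0575%, so only its replicate 1, a library that stood apart, exceeded the prf1Δ libraries. Without the 3 libraries that stood apart, the members summed to 1701 CPM in prf1Δ, against 236 CPM in WT, which is 7.2 times as much, and the ratio was 6.87 for hrp1Δhrp3Δprf1Δ and 2.05 for hrp1Δhrp3Δ.

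**Figure D2:**
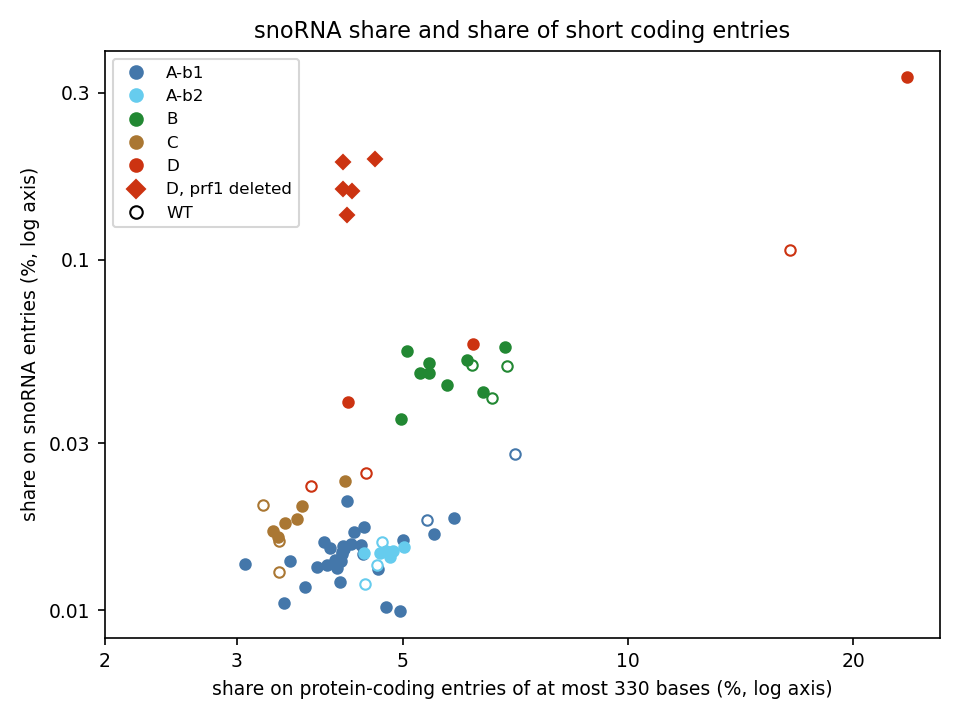
Share of counts on snoRNA entries (%, log axis) against the share on protein-coding entries of at most 330 bases (%, log axis), 1 point per library with snoRNA counts, colored by experiment or batch. Open circles are WT and diamonds are libraries labelled prf1Δ or hrp1Δhrp3Δprf1Δ, which lie high at an ordinary share of short coding entries, while hrp1Δhrp3Δ replicate 1 and WT replicate 3 of D lie at 23.6 and 16.4% on the horizontal axis.

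Protein-coding entries of at most 330 bases had 1.05 times the WT level in prf1Δ without the 3 libraries, and lncRNA entries of that length 0.720 times. Summed H/ACA members had 9.25 times the WT level and C/D members 3.31 times, and members outside other entries had 7.5 times and intronic ones 3.00 times. Sums of other small RNAs were higher too, spliceosomal snRNA entries at 5.90 times, the U3 snoRNA entries, which carry snRNA names and so are not counted here, at 7.64 times, and tRNA entries at 8.62 times. Ribosomal RNA entries were at 1.14 times, all lncRNA entries at 1.75 times. With all 12 libraries the same ratios were 3.78 for H/ACA members, 2.02 for C/D members, 3.35 for members outside other entries and 2.44 for intronic ones. They were then 2.90 for snRNA, 3.99 for U3, 6.23 for tRNA and 1.44 for ribosomal RNA entries, and 0.528 and 0.523 for short protein-coding and short lncRNA entries. The part of untailed RNA carried through selection in these values was not tested.

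With all 12 libraries of D, edgeR called 1 of 33 tested members higher in prf1Δ and 0 lower, where 16.3% of all tested entries were called higher. It was snoR39b, at 9.08, 5.36 and 9.11 CPM in prf1Δ, against 0.471, 0.747 and 0.507 CPM in WT. In counts it had 57, 26 and 50 in prf1Δ, against 2, 2 and 1 in WT. It thus passed the filter only through libraries labelled prf1Δ or hrp1Δhrp3Δprf1Δ, where it was high, so a rise was favoured by the filter. The groups did not overlap, and the log2 fold change was 2.82 (SE 0.67, adjusted p = 0.00742, edgeR). Of the 33 members 16 lay above all WT libraries in CPM, against 48.1% of all entries. The members' median log2 fold change was -0.29, against -0.04 over all entries tested. The biological coefficient of variation of this fit was 0.649, against 0.267 without the 3 libraries.

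Without those 3 libraries, 25 of 34 tested members were called higher in prf1Δ and 0 lower, against 32.5% of all entries called higher. The median log2 fold change of the members was 1.94, against 0.26 over all entries tested, and 32 of 34 lay above both remaining WT libraries, against 54.3% of all entries. H/ACA members were called higher in 13 of 14 cases and C/D members in 8 of 14. By place, 22 of 26 members outside other entries were called higher and 3 of 8 intronic ones. These 3 passed the filter only through libraries labelled prf1Δ or hrp1Δhrp3Δprf1Δ.

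The largest change without the 3 libraries was that of an H/ACA member. snR30, which in budding yeast is required for cleavage of the 18S precursor, had 620, 789 and 677 CPM in prf1Δ, against 38.2 and 43.3 CPM in the WT libraries kept and 306 CPM in WT replicate 3. In CPM the prf1Δ libraries exceeded all 3. The log2 fold change was 3.72 without the 3 libraries (SE 0.36, adjusted p = 9.27e-05, edgeR) and 0.48 with all libraries (SE 1.45, adjusted p = 0.89), where snR30 was not called. snR42 had 47.3, 57.7 and 37.5 CPM, against 3.06 and 3.36 CPM, with 13.7 CPM in WT replicate 3 (log2 fold change 3.52, SE 0.40, adjusted p = 0.000158). snR91 had 87.6, 99.4 and 65.2 CPM, against 5.89 and 6.72 CPM, with 50.7 CPM in WT replicate 3 (3.37, SE 0.36, adjusted p = 0.000125). snR98 had 57.2, 73.4 and 41.0 CPM, against 4 and 5.6 CPM, with 16.2 CPM in WT replicate 3 (3.23, SE 0.40, adjusted p = 0.000184). In snR42, snR91 and snR98 the prf1Δ libraries were also above WT replicate 3 in CPM. CPM is scaled by library total alone, and the TMM factor of WT replicate 3 was 0.264, against 1.12 to 1.27 in prf1Δ. After division by these factors, as in the test, WT replicate 3 was above every prf1Δ library for snR30 and snR91. For snR42 and snR98 it was not below every prf1Δ library. snR95 had 113, 161 and 136 CPM, against 19.8 and 17.5 CPM, with 107 CPM in WT replicate 3 (2.49, SE 0.30, adjusted p = 0.000183). With all libraries of D, snR42, snR91, snR98 and snR95 were not called.

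snR101, an H/ACA entry, was the one member of that class not called, at a log2 fold change of -0.17. snR70, which was not assigned to a class, had 3.82, 4.74 and 2.55 CPM in prf1Δ, against 0.236 and 0.373 CPM in the 2 WT libraries kept (3.19, SE 0.82, adjusted p = 0.00833). These WT libraries held 1 count each, and snR70 passed the filter of this fit only through libraries labelled prf1Δ or hrp1Δhrp3Δprf1Δ.

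**Figure D3:**
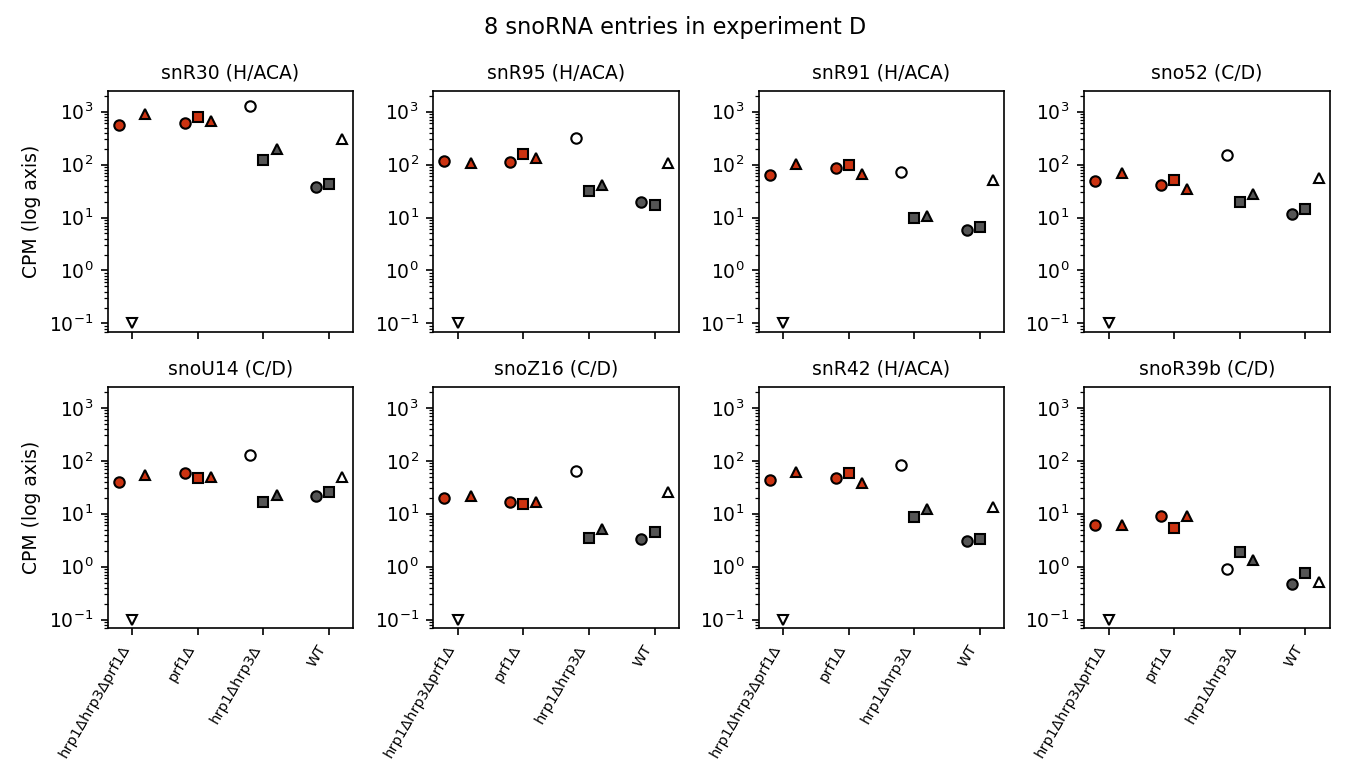
CPM (log axis) of 8 snoRNA entries in each library of D, with symbols for replicates 1, 2 and 3 as in the share plot. White symbols are the 3 libraries that stood apart, and a downward triangle at the bottom is a value of 0. snR30 lies at 620 to 789 CPM in prf1Δ, above every WT library in CPM. After division by the TMM factors, which is not drawn, WT replicate 3 was above the prf1Δ libraries for snR30.

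The C/D members snoU14, sno52 and snoZ16 did not exceed WT replicate 3 in every prf1Δ library. snoU14 had 58.1, 47.2 and 49.6 CPM in prf1Δ, against 21.7 and 25.4 CPM in WT, but 49.7 CPM in WT replicate 3, within the range of prf1Δ. Its log2 fold change was 0.75 without the 3 libraries (SE 0.28, adjusted p = 0.043) and -0.90 with all libraries, where it was not called. sno52 had 41.7, 50.5 and 35 CPM, against 11.8 and 14.6 CPM, with 56.3 CPM in WT replicate 3 (1.32, SE 0.33, adjusted p = 0.00751), and was at -1.16 with all libraries. snoZ16 had 16.7, 15.3 and 16.9 CPM, against 3.30 and 4.48 CPM, with 25.9 CPM in WT replicate 3 (1.70, SE 0.37, adjusted p = 0.00368), and was at -1.30 with all libraries. snr79, a C/D entry, was above all WT libraries, at 39.2, 39.4 and 49.2 CPM, against 6.12, 4.11 and 4.56 CPM (2.65, SE 0.40, adjusted p = 0.000478 without the 3 libraries; not called with all libraries).

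snoR39b, read from within the intron of the ribosomal protein gene rpl701, had the largest change among intronic members without the 3 libraries, with a log2 fold change of 3.31 (SE 0.58, adjusted p = 0.00111). Its host rpl701 was lower, at -0.84 (adjusted p = 0.0298, edgeR). snoR38 was called at 2.34 and its host SPAC29A4.02c was at -0.36 and not called, while snoR54 was called at 2.31 and its host gua1, a purine synthesis gene, was at -0.39 and not called. In counts snoR38 had 53, 46 and 49 in prf1Δ, against 4 and 5 in the WT libraries kept. snoR54 had 32, 11 and 24, against 2 and 2. snoR39b, snoR38 and snoR54 passed the filter of this fit only through libraries labelled prf1Δ or hrp1Δhrp3Δprf1Δ, where they were high. A rise was thus favoured by the filter. The other tested intronic members (snoU24, snoU18, snoR47, snoR58 and snoZ15) were not called. Of the 10 hosts, 4 were called lower and 0 higher, against 17.2% of all entries called lower, and with all libraries 0 were called in either direction. The lncRNA snoZ, which encloses snoZ8, snoZ7, snoZ5, snoZ4 and snoZ3, members with almost no counts of their own, was called higher at 1.31 (adjusted p = 0.00257), as was SPNCRNA.617, which encloses snR97, at 1.61 (adjusted p = 0.000863).

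**Figure D4:**
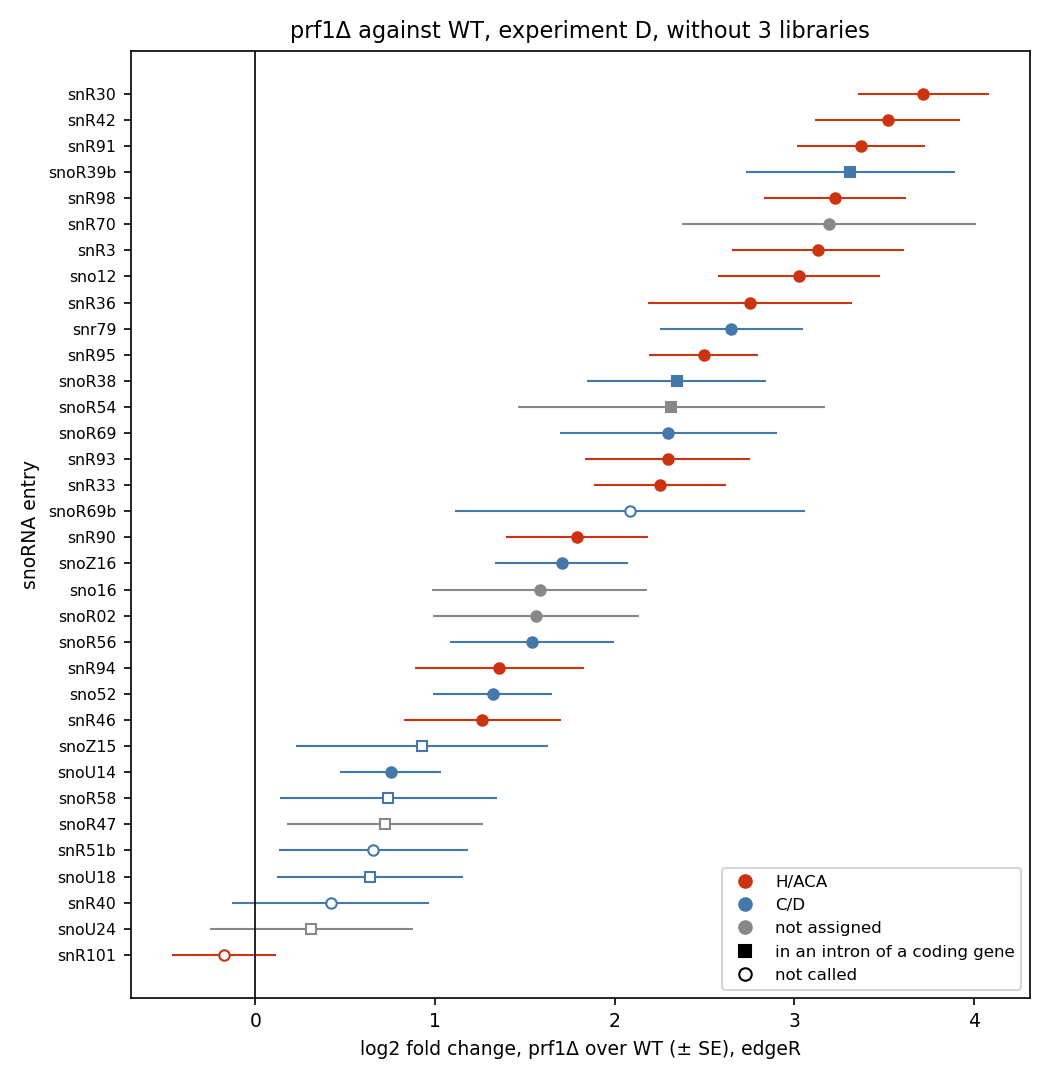
Log2 fold change of the 34 tested members, prf1Δ over WT in D without the 3 libraries that stood apart (edgeR, bars are ± SE). Colors give the snoRNA class, squares are intronic members, and open symbols were not called; 13 of 14 H/ACA members are filled, and snR101 is the only member below 0, at -0.17.

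The reverse-complement entries of snR5 and snR10 moved the same way as the sense members. snR10 had 53, 76.3 and 30.6 CPM on that strand in prf1Δ, against 3.06, 2.61 and 15.7 CPM in WT, with no overlap in CPM (log2 fold change 3.85 without the 3 libraries, adjusted p = 0.000313, edgeR). snR5 had 28.0, 41.0 and 29.9 CPM, against 5.89, 3.36 and 14.2 CPM, again with no overlap in CPM (2.43, adjusted p = 0.00186). After division by the TMM factors WT replicate 3 was above every prf1Δ library for snR5, and for snR10 it was not below every one. snR96 had 6.05, 6.60 and 5.65 CPM, against 4.47, 9.33 and 3.55 CPM, and the groups overlapped.

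In hrp1Δhrp3Δprf1Δ, 2 of 33 members were called higher with all libraries, against 13% of all entries: snoR39b (2.64) and snoR54 (3.12). Both had at most 2 counts in any WT library of D. They passed the filter only through libraries labelled prf1Δ or hrp1Δhrp3Δprf1Δ. Without the 3 libraries 18 of 34 were called higher and 0 lower, against 27.6% of all entries called higher, with a median of 2.10. snR30 again stood highest, at 565 and 913 CPM in the 2 libraries kept, against 38.2 and 43.3 CPM in WT (3.97, SE 0.38, adjusted p = 0.000111). hrp1Δhrp3Δprf1Δ against prf1Δ gave 0 called members, with 0% of all entries called and 1 member at an unadjusted p under 0.05 without the 3 libraries (edgeR; 0 members with all libraries, and 0 called by DESeq2 there). Against hrp1Δhrp3Δ, 14 of 34 members were called higher without the 3 libraries, against 8.28% of all entries, with snR91 (2.92) and snoR38 (2.78) at the top. snoR38 passed the filter there only through libraries labelled prf1Δ or hrp1Δhrp3Δprf1Δ, so its rise was favoured by the filter. With all libraries that comparison gave 0 calls, 2 members at an unadjusted p under 0.05 and 0 by DESeq2, while 0.522% of all entries were called.

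For hrp1Δhrp3Δ against WT in D, edgeR called 0 of 33 members with all libraries (12.7% of all entries were called higher), 2 were at an unadjusted p under 0.05, and DESeq2 called 1. Without the 3 libraries 4 of 34 were called higher and 0 lower, against 20.1% of all entries called higher. These were snR36 (2.70), sno16 (1.95), snR30 (1.89) and snR42 (1.62). snR30 had 120 and 194 CPM in the hrp1Δhrp3Δ libraries kept and 1279.6 CPM in replicate 1, against 38.2, 43.3 and 306 CPM in WT. The libraries kept differed from each other in single genes, as given above. Leaving out WT replicate 3 alone gave 16 calls here, 6 in prf1Δ and 4 in hrp1Δhrp3Δprf1Δ. The share of all entries called in those fits is not given, so these counts are not read as a result about the members.

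In B the CHD remodeler mutants were compared, Hrp1 and Hrp3 being paralogs related to budding yeast Chd1, which spaces nucleosomes over genes. The share of snoRNA entries overlapped WT throughout: hrp1Δhrp3Δ had 1.10 times the WT mean (exact permutation p = 0.4), hrp1Δ 1.01 times (p = 0.9) and hrp3Δ 0.951 times (p = 0.7). Individual members changed in both directions. In hrp1Δ 1 of 35 tested members was called higher and 0 lower, against 7.06% of all entries called higher. In hrp3Δ 1 was called higher and 14 lower, against 21.6% and 17.9% of all entries, and in hrp1Δhrp3Δ 4 were higher and 13 lower, against 29% and 24.6%. Members had a median log2 fold change of -0.53 in hrp3Δ and -0.54 in hrp1Δhrp3Δ, against 0.01 and 0.00 for all entries. With factors from protein-coding entries alone the members' medians were -0.38 and -0.31, with 1 higher and 11 lower in hrp3Δ and 4 higher and 9 lower in hrp1Δhrp3Δ. Protein-coding entries of at most 330 bases were also lower, at a median of -0.25 in hrp3Δ and -0.33 in hrp1Δhrp3Δ, and the part of entry length in the members' change was not tested.

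snR92, an H/ACA snoRNA, rose in hrp1Δ and hrp1Δhrp3Δ. It had 3.39, 3.93 and 3.23 CPM in hrp1Δhrp3Δ and 2.92, 3.62 and 2.54 CPM in hrp1Δ, but 0.339, 0.0951 and 0.379 CPM in hrp3Δ, against 0.943, 0.211 and 0.772 CPM in WT. The log2 fold change was 2.07 in hrp1Δ (SE 0.47, adjusted p = 0.0104) and 2.05 in hrp1Δhrp3Δ (SE 0.46, adjusted p = 0.00172), and hrp1Δhrp3Δ exceeded hrp3Δ by 3.42 (SE 0.53, adjusted p = 0.000929). In counts snR92 had 18.9 to 36.3 in hrp1Δ and 27.1 to 28.4 in hrp1Δhrp3Δ, against 1.93 to 7 in WT. It thus passed the filter only through the groups where it was high, so a rise was favoured by the filter. Since its estimates are shared with another entry in 36 libraries, its level is uncertain.

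snoU14, the C/D snoRNA that acts in processing of the 18S precursor, was the member that went up in hrp3Δ and down in hrp1Δhrp3Δ. It had 18.7, 17.7 and 13.4 CPM in hrp1Δhrp3Δ and 41.6, 38.9 and 46.8 CPM in hrp3Δ, with 22.1, 23.4 and 26.0 CPM in hrp1Δ, against 24.9, 21.2 and 20.5 CPM in WT. Both changes left no overlap with WT, at 0.66 in hrp3Δ (SE 0.12, adjusted p = 0.000723) and -0.79 in hrp1Δhrp3Δ (SE 0.13, adjusted p = 0.000172). hrp1Δhrp3Δ was lower than hrp3Δ, with a log2 fold change of -1.44 (SE 0.13, adjusted p = 1.14e-05).

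The lower calls in hrp3Δ fell mostly on H/ACA members. Of these 9 of 16 tested were called lower, against 4 of 14 C/D members, and 0 of 7 intronic members were called. Of the 10 host genes 7 were called lower and 0 higher, against 17.9% of all entries called lower. Hosts and members were not compared by a test. snR42 had 11.5, 8.84 and 10.7 CPM in hrp3Δ and 10.6, 10.5 and 10.8 CPM in hrp1Δhrp3Δ, against 17.6, 16.4 and 13.9 CPM in WT (-0.91 and -0.95, SE 0.15 for each, adjusted p = 0.000305 and 0.000121). No mutant library overlapped WT. snR30 had 83.7, 59.4 and 82.2 CPM in hrp3Δ, against 102, 105 and 99.9 CPM in WT (-0.73, SE 0.12, adjusted p = 0.000223), and 137, 135 and 141 CPM in hrp1Δhrp3Δ, which was not called against WT. snoR69, a C/D entry, had 1.85, 1.60 and 1.52 CPM in hrp3Δ, against 3.50, 3.17 and 2.70 CPM in WT (-1.18, SE 0.37, adjusted p = 0.0198), and sno20 had 12, 11.4 and 10.8 CPM, against 19.2, 18.1 and 17.0 CPM (-0.94, SE 0.28, adjusted p = 0.014). The other entries called lower in hrp3Δ were snR98, snoR56, snr79, snR33, snR51b, snR90, snR93, snR95, snR91 and sno16.

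**Figure D5:**
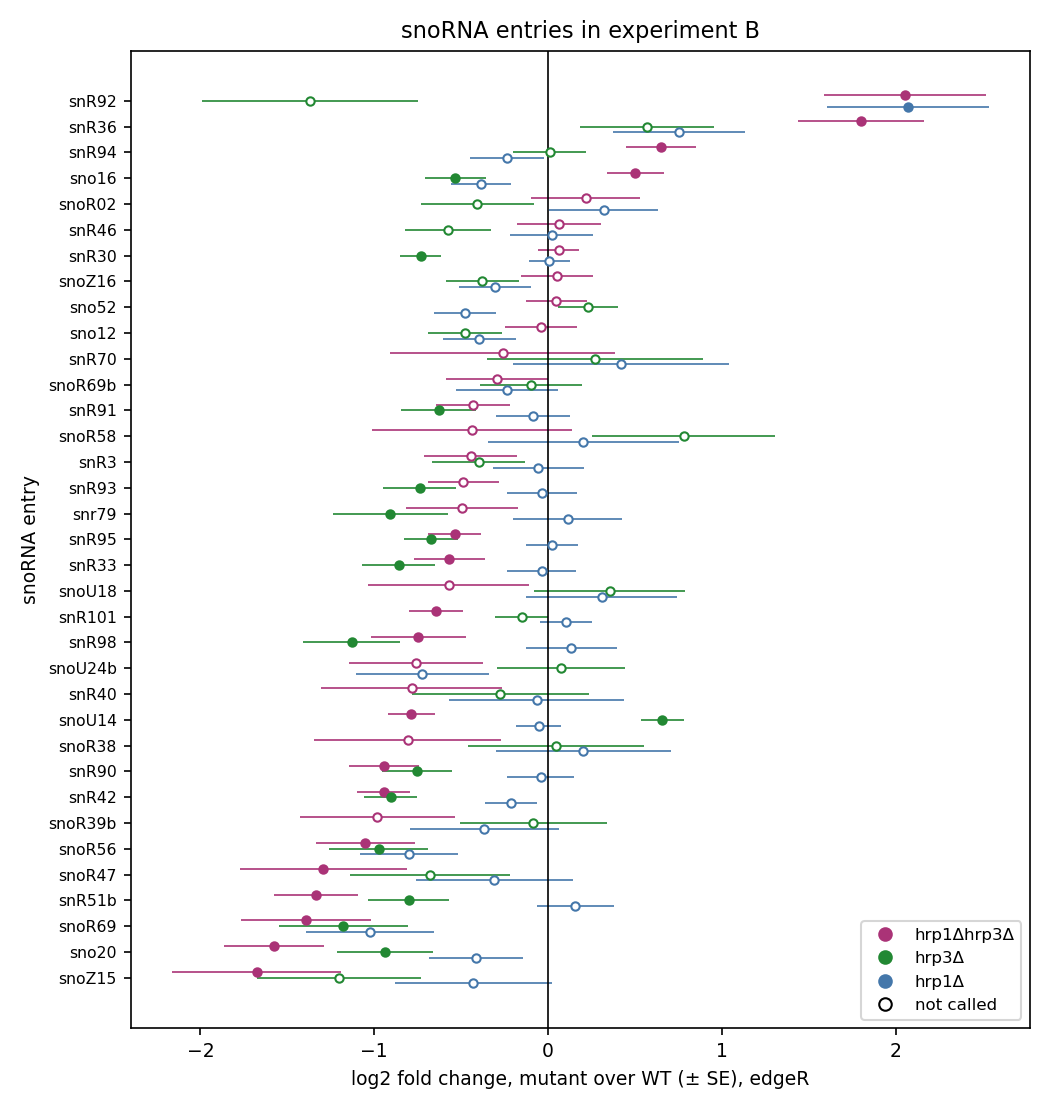
Log2 fold change (± SE, edgeR) of the 35 tested members over WT in B, for hrp1Δhrp3Δ, hrp3Δ and hrp1Δ. Filled points were called; the largest rises are those of snR92 (2.05 in hrp1Δhrp3Δ) and snR36 (1.80), and snoU14 lies at 0.66 in hrp3Δ and -0.79 in hrp1Δhrp3Δ.

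In hrp1Δhrp3Δ the members called higher besides snR92 were snR36, snR94 and sno16. snR36, an H/ACA entry, had 6.77, 10.2 and 6.74 CPM, against 1.21, 2.08 and 1.91 CPM in WT (1.80, SE 0.36, adjusted p = 0.000732). The groups did not overlap. Those called lower included snoZ15 (-1.68), an intronic C/D member within pfd1, sno20 (-1.58), snoR69 (-1.39), snR51b (-1.33), snoR47 (-1.29), snoR56 (-1.05), snR90 (-0.95), snR98 (-0.75), snR101 (-0.65), snR33 (-0.57) and snR95 (-0.54). hrp1Δhrp3Δ exceeded hrp3Δ for 4 members and fell below it for snoU14, against 6.23% and 3.57% of all entries; the 4 were snR92, snR36 (1.23), sno16 (1.04) and snR30 (0.79). Between hrp3Δ and hrp1Δ, 2 members were higher in hrp3Δ (snoU14 and sno52, both 0.71) and 10 lower, against 18.2% and 16% of all entries, among them snR92 (-3.44), snR98 (-1.26), snR51b (-0.96), snR33 (-0.82), snR30 (-0.74) and snR90 (-0.71).

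In C the libraries labelled hrp3-CT(hrp1) had 0 of 29 members called by edgeR (5 at an unadjusted p under 0.05, 0 by DESeq2), where 7.9% of all entries were called. In those labelled hrp1-CT(hrp3), 1 was called higher and 2 lower, against 33.1% and 26% of all entries. sno52 had 17.2, 17.3 and 14.1 CPM in hrp1-CT(hrp3), against 6.56, 8.66 and 7.16 CPM in WT, with no overlap (0.89, SE 0.19, adjusted p = 0.00155). It had 7.37, 5.99 and 7.2 CPM in hrp3-CT(hrp1), and the difference between the exchanges was 1 (SE 0.19, adjusted p = 0.000703). snoU14 was called lower at -0.59 (19, 16.9 and 20.5 CPM, against 23.3, 19.7 and 30.5 CPM) and snR90 at -0.68 (4.98, 6.15 and 4.42 CPM, against 6.49, 5.96 and 8.57 CPM), both with overlap. With factors from protein-coding entries alone the same comparison gave 3 higher and 0 lower, with snoU14 at -0.34 (adjusted p = 0.0841) and snR90 at -0.43 (adjusted p = 0.155). Leaving out WT replicate 2 gave 3 calls, all higher, for hrp3-CT(hrp1) and 5 for hrp1-CT(hrp3).

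hrp1-CT(hrp3) against hrp3-CT(hrp1) gave sno52 higher and 7 members lower, against 32.6% and 27.6% of all entries. The lower ones were snoZ16 and snR51b (both -1.45), snR90 (-1.31), snR40 (-1.15), snr79 (-1.13), snR95 (-1) and snoU14 (-0.81). snR90 had 4.98, 6.15 and 4.42 CPM in hrp1-CT(hrp3), against 13.4, 8.99 and 10.1 CPM in hrp3-CT(hrp1), with no overlap (SE 0.23, adjusted p = 0.00042).

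In A-b2, snf22Δ, which lacks the SWI/SNF ATPase, changed 2 of 21 tested members, 1 in each direction, where 15.7% of all entries were called higher and 16.3% lower. snoU14 had 27.0, 27.9 and 26.1 CPM in snf22Δ, against 15.1, 15.02 and 14.9 CPM in WT (0.92, SE 0.14, adjusted p = 0.000188). snR101 had 10.9, 10.5 and 12.4 CPM, against 20.6, 19.7 and 22.2 CPM (-0.81, SE 0.13, adjusted p = 0.000273). Neither overlapped WT. In fft1Δ edgeR called 0 of 21 members (1 at an unadjusted p under 0.05, 0 by DESeq2), with 0.0119% of all entries called.

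In A-b1 no member was called higher in any mutant, and calls were lower in 7 of the 9. Of 18 tested members, 5 were called lower in the libraries labelled fft2Δ, against 12.9% of all entries, 4 in fft3Δ (8.58%), 7 in hrp1Δ (10.7%) and 8 in those labelled hrp3Δ (15.7%). mit1Δ had 1 (3.79%), rrp2Δ 2 (2.52%) and irc20Δ 4 (8.11%). The libraries labelled rrp1Δ had 0 (0.0236%) and swr1Δ 0 (1.83%), with 8 and 3 members at an unadjusted p under 0.05 and 0 called by DESeq2 in both. The shares lay between 0.00993 and 0.0205% in the 27 mutant libraries, against 0.0279, 0.0181 and 0.0145% in WT, so WT replicate 1 stood above them all. irc20Δ alone lay below all 3 WT libraries, at a ratio of 0.688 (exact p = 0.1, 0.585 after adjustment).

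Without WT replicate 1, fft3Δ and hrp1Δ had 1 call each and the other 7 mutants 0, and the share of all entries called in that fit is not given. Protein-coding entries of at most 330 bases moved with the members: 118 of 258 were called lower in fft2Δ and 110 in hrp3Δ, and their share was 0.683 to 0.829 times that of WT over the 9 mutants, against 0.644 to 0.805 for the members. Their part in the result was not tested. snR33, an H/ACA entry, had 0.631, 5.13 and 4.99 CPM in fft3Δ, against 19.6, 10.6 and 9.67 CPM in WT (-1.85, SE 0.36, adjusted p = 0.000661), and 3.88, 8.11 and 4.37 CPM in fft2Δ (-1.19, SE 0.32, adjusted p = 0.00745). Neither overlapped WT. sno52 had 5.38, 8.53 and 13.1 CPM in fft2Δ and 3.16, 9.36 and 10.7 CPM in fft3Δ, against 21.8, 16.0 and 19.3 CPM in WT (-1.21 and -1.29), also with no overlap. snR93 had 2.15, 1.97 and 2.48 CPM in hrp1Δ, against 8.01, 7.98 and 5.16 CPM (-1.81, SE 0.40, adjusted p = 0.00269). snR42, at 0.933, 0.830 and 0.298 CPM in mit1Δ, against 5.76, 3.55 and 1.93 CPM, was the 1 call there (-2.66, SE 0.79, adjusted p = 0.0383). In counts it had 2, 2 and 1 in mit1Δ, against 46, 4 and 3 in WT. It passed the filter only through WT libraries, where it was high, and a single hrp1Δ library, so a lower call was favoured by the filter.

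Over the 19 comparisons with WT, 37 members were tested at least once and 26 were called at least once, 3 of them in both directions. snR90 was called in 9, each time lower, then snR33 in 6, snR42 in 5, and sno16, sno52, snoR47, snoU14, snR51b and snR93 in 4 each. The comparisons of a batch share their WT libraries, so these counts are not independent. The share of all entries called at least once is not given, and hrp1-CT(hrp3) alone had 33.1% of entries called higher and 26% lower. The snR90 calls include fft2Δ, fft3Δ, hrp1Δ, hrp3Δ, rrp2Δ and irc20Δ of A-b1. In each of these at most 1 of the members' calls remained without WT replicate 1.

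The same mutants in different experiments were compared by a test of the difference of their effects. For hrp1Δ, 2 of 33 members differed between B and A-b1, against 5.68% of all entries, and for hrp3Δ 5 of 32, against 9.92%. For hrp1Δhrp3Δ between D and B, 0 of 35 members were called by edgeR (1 at an unadjusted p under 0.05; no other tool was run), with 0% of all entries called.

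Genes for the proteins that carry or process snoRNAs were also measured. In prf1Δ without the 3 libraries, where 17.2% of all entries were called lower, all 5 assembly genes were: bcd1 (-2.31), which acts on C/D snoRNA assembly, shq1 (-1.61) and naf1 (-1.23), which act on H/ACA assembly, and the ATPase genes rvb1 (-0.99) and rvb2 (-0.61). The 4 C/D core protein genes gave 2 lower (fib1, at -0.79, the methyltransferase, and nop56, at -0.69), the 4 H/ACA core genes 1 lower (gar1, -0.96), and 0 were higher. Of 14 genes for RNA 3′ end processing and nuclear decay, 4 were lower and 0 higher, namely air1 (-2.18) and mtr4 (-1.02), which act with the poly(A)-adding TRAMP complex, the poly(A) polymerase gene pla1 (-0.97), and the exosome nuclease gene dis3 (-0.88). With all libraries of D, where 2.65% of all entries were called lower, 1 of the 14 decay genes was called lower and none of the other 13 genes was called. The same lists gave 0 higher and 2, 4, 4 and 4 lower in hrp3Δ of B for the 4 C/D core, 4 H/ACA core, 5 assembly and 14 decay genes, against 17.9% of all entries called lower, with cbf5, the pseudouridine synthase gene, at -0.81 and bcd1 at -1.74. In hrp1Δhrp3Δ of B all 4 C/D core and all 4 H/ACA core genes were lower, cbf5 at -1.29, with 4 of 5 assembly genes lower, and of the decay genes 9 were lower and sen1, a helicase gene, was higher (0.33), against 24.6% of all entries called lower. Their part in the snoRNA levels was not tested.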

How the data were processed

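Deposited tables, 1 per library, were used. Per the submitters' processing notes the authors quantified reads with kallisto against ASM294v2 (versions not given in the sources used here), and the deposited estimated counts and TPM values carry no normalization between libraries. The authors' libraries were paired-end, from poly(A)-selected RNA. Members, lists and tests were chosen with earlier results of these data known.

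After rounding to integers the estimated counts entered edgeR 4.0.16 (quasi-likelihood, R 4.3.3, limma 3.58.1), with 1 fit for each of A-b1, A-b2, B, C and D, 1 term per group, filterByExpr (minimum count 10, minimum total 15), TMM factors over all entries kept and a prior count of 0.125. Tests were two-sided, with Benjamini-Hochberg adjustment over all entries of a fit, and a member was called below 0.05. A log2 fold change is mutant over WT and its SE is the fold change over the square root of F. CPM values are scaled by library total alone. Shares were compared by an exact permutation test of 3 against 3 libraries. The same mutant in 2 experiments was tested as an interaction in a joint fit. Wilson intervals are at 95%, the limit for a count of 0 is 3 counts, and both cover counting error only. Alternatives were DESeq2 1.42.0, no filter, factors from protein-coding entries, a replicate block, other denominators of the share, and each library left out, with 3 settings that drop the libraries standing apart in D, or that also change the factors, added after the data were seen. The scripts were tested on simulated data.

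Members named were those of the 5 highest WT median TPM, U14 and snR30, the 5 called most often, and, per comparison, up to 6 called members with the largest change, no overlap with the other group and a mean of at least 1 CPM in the higher group; others are named to account for all calls, and the sense and reverse-complement pairs after their values were seen. In D, profile correlation was taken over protein-coding entries, in log CPM, with the median of each entry over all 72 libraries of the series. Sequences and annotation are from RefSeq ASM294v3.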

Additional observations from a re-analysis of the deposited data

Results flagged for a closer look

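For hrp1Δ, the effect in B exceeded that in A-b1 for sno16 by 3.53 on the log2 scale (SE 0.81, adjusted p = 0.0237, edgeR interaction test over all entries), with log2 fold changes of -0.39 in B and -3.83 in A-b1, and for snR93 by 1.72 (SE 0.36, adjusted p = 0.0167), with -0.03 and -1.81. sno16 had 9.76, 11.4 and 16.0 CPM in hrp1Δ of B, against 16.4, 13.3 and 13.7 CPM in WT, and 0.192, 0.429 and 0 CPM in hrp1Δ of A-b1, against 6.20, 0 and 3.70 CPM in WT, where 1 WT library had no count.

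For hrp3Δ, the effect in B exceeded that in A-b1 for snR40 by 4.10 (SE 0.99, adjusted p = 0.0181), sno16 by 2.77 (SE 0.68, adjusted p = 0.0195), snoZ16 by 1.94 (SE 0.59, adjusted p = 0.0488), sno12 by 1.81 (SE 0.44, adjusted p = 0.0191) and snoU14 by 0.90 (SE 0.24, adjusted p = 0.027). snR40, which passed the filter in B but not in A-b1 alone, was at 2.20, 0.982 and 2.08 CPM in hrp3Δ of B, against 2.29, 1.64 and 1.35 CPM in WT, and at 0.0551, 0 and 0 CPM in hrp3Δ-labelled libraries of A-b1, against 1.25, 0.887 and 0.645 CPM in WT. snoU14 had log2 fold changes of 0.66 in B and -0.01 in A-b1. hrp3 itself was not lower in the A-b1 libraries labelled hrp3Δ. Without WT replicate 1 of A-b1, 0 members were called to differ for either mutant.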

How the results depend on the processing

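DESeq2 called 3 in fft2Δ, 5 in hrp3Δ of A-b1, 0 in mit1Δ, 0 in rrp2Δ and 1 in irc20Δ, but 1 in hrp1Δhrp3Δ of D and 2 in prf1Δ. Without a filter mit1Δ and rrp2Δ had 0 and hrp1Δhrp3Δ of D 1, and with factors from protein-coding entries hrp1Δhrp3Δ of D had 1 and prf1Δ 2. Without the 3 libraries that stood apart in D the calls were 4 in hrp1Δhrp3Δ, 25 in prf1Δ, 18 in hrp1Δhrp3Δprf1Δ and 14 for hrp1Δhrp3Δprf1Δ against hrp1Δhrp3Δ, and with factors from protein-coding entries as well 10, 26, 21 and 14. Several prf1Δ log2 fold changes then turned positive: snR95 at 2.49 and 2.98 (from -0.38), sno52 at 1.32 and 1.80, snoU14 at 0.75 and 1.24, and snoZ16 at 1.70 and 2.19. The cause of these moves was not tested. For the other settings and for libraries left out singly, here and above, the share of all entries called is not given. Those counts therefore show only how the members' calls depend on the setting.

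The share ratio in B was 0.944 for hrp1Δ and 1.22 for hrp3Δ on TPM, and 0.983 and 1.01 without the member of the largest share.

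Replicate numbers did not pair the samples: same-number correlations ran from -0.61 to 0.68, in 0 of 19 comparisons were all of them over 0.1, and in 1 comparison every library was closest to its own number. With the replicate block, rrp2Δ had 1 call, hrp1Δhrp3Δprf1Δ 0, and snR95 in prf1Δ was at 0.59; counts of calls in the other comparisons stayed within 1.5 times.

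Leaving out single libraries gave 0 to 6 calls in fft2Δ, 1 to 4 in fft3Δ, 1 to 8 in hrp1Δ of A-b1, 0 to 11 in hrp3Δ of A-b1, 0 to 3 in mit1Δ, 0 to 2 in rrp1Δ, 0 to 4 in rrp2Δ and 0 to 6 in irc20Δ, and leaving out WT replicate 1 gave the lowest count of each. In B hrp1Δ had 1 to 3, the highest without hrp1Δ replicate 3. In C hrp3-CT(hrp1) had 0 to 3 and hrp1-CT(hrp3) 2 to 5, the highest of each without WT replicate 2. In D hrp1Δhrp3Δ had 0 to 16, prf1Δ 0 to 6 and hrp1Δhrp3Δprf1Δ 0 to 4, the highest of each without WT replicate 3. Differences between experiments numbered 0 to 8 for hrp1Δ and 0 to 7 for hrp3Δ, with 0 without WT replicate 1 of A-b1. Share ratios ran from 0.918 to 1.07 in hrp1Δ of B, from 0.883 to 1.05 in hrp3Δ of B, from 0.984 to 1.23 in hrp1-CT(hrp3), and from 0.943 (without replicate 1) to 6.05 in hrp1Δhrp3Δ of D. In prf1Δ, log2 fold changes ran from -0.045 to 3.69 for snR30, -0.47 to 3.34 for snR91, -0.89 to 2.47 for snR95, -1.67 to 1.29 for sno52, -1.33 to 0.73 for snoU14 and -1.87 to 1.67 for snoZ16.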
